A study of Mus musculus with 2 samples.

Results

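The genes described here are 34 members of the mouse autophagy machinery and its cargo receptors, chosen by symbol from the gene names in the deposited transcript tables. Each of the 34 symbols matched 1 gene identifier, out of 55536 genes in the gene tables, and all 34 had counts in both libraries. Whole-cell RNA selected for polyA tails was sequenced from bone marrow-derived macrophages of C57BL/6J mice, which are macrophages grown in culture from bone marrow. There was 1 group with 2 biological replicates. By the sample description, both cultures met Lipid A (100 ng/ml) for 12 h, rested after washout for 12 h, and met it once more (100 ng/ml) for 300 min. Lipid A is the lipid part of bacterial lipopolysaccharide, whereas the treatment field lists lipoprotein A as the agent and calls it a protein, and nothing in the labels decides between these names. Since the libraries share a donor identifier but not a biosample identifier, animals could vary more than these replicates do. With no untreated samples to set against this group, no gene was tested for a response to the exposure, and fewer cells of a type and less RNA per cell cannot be told apart.

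Autophagy wraps cytoplasm, damaged organelles or bacteria in a growing membrane and delivers them to the lysosome. A kinase complex starts the process, a lipid kinase complex marks the membrane, lipid carriers extend it, and ubiquitin-like conjugation enzymes attach small proteins of the Atg8 family to it, to which receptors carrying ubiquitinated cargo bind. In macrophages the pathway is known for the destruction of intracellular bacteria, for LC3-associated phagocytosis and for clearing damaged mitochondria. Levels below are TPM (transcript abundances scaled to length and to a fixed library total), so they can be set side by side between genes.

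The libraries held 50503159 counts in replicate 1 and 46342331 in replicate 2, and the lowest count of any member in a library was 261. Against 27.3% of protein-coding genes, 10 of 10 macrophage marker genes reached 10 TPM in both libraries, with a list median of 579 TPM. Among them Cd14 had 347.90 and 690.66 TPM in replicates 1 and 2, and C1qa had 1017.27 and 695.91 TPM, so these markers differed in opposite directions. Neutrophil genes moved with the library, with a summed level over 8 genes of 62.9 TPM in replicate 1 and 4.40 TPM in replicate 2, mostly from S100a9 and S100a8, while Ly6g and Retnlg were at 0 in both. Endothelial genes summed over 4 genes to 14.3 TPM in replicate 1 and 44.8 TPM in replicate 2, mostly from Kdr, with Tie1 at 0.010 and 0.020 TPM. Pecam1 had 1.96 and 2.23 TPM in replicates 1 and 2, and Cdh5, at 1.38 and 0.87 TPM, differed the other way from Kdr. The part of these differences in the ratios between libraries was not tested.

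As a group the members were moderately abundant, and the levels were very uneven. Their median was 15.9 and 17.8 TPM in replicates 1 and 2, a mean of 16.8 ± 1.38 TPM (SD, n = 2). Of the 34 members, 23 reached 10 TPM in both libraries, a share of 67.6%, against 27.3% of protein-coding genes and 11.2% of all genes. All 34 reached 1 TPM, against 44.4% of protein-coding genes, 30 reached 5 TPM, against 34.7%, and 15 reached 20 TPM, against 19.2%. Among protein-coding genes that themselves reached 1 TPM in both libraries, the median was 16.8 TPM in each library, close to that of the members. Sqstm1 and Gabarap, 2 of the 34 members, passed 100 TPM in both libraries, a share near the 5.42% of protein-coding genes. Together they held 68.4% and 68.8% of the summed TPM of the 34 genes in replicates 1 and 2. In the order of mean levels, 21 of 33 neighbouring pairs had ranges that overlapped between the libraries, so only 12 steps of that order exceeded the spread.

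**Figure D1:**
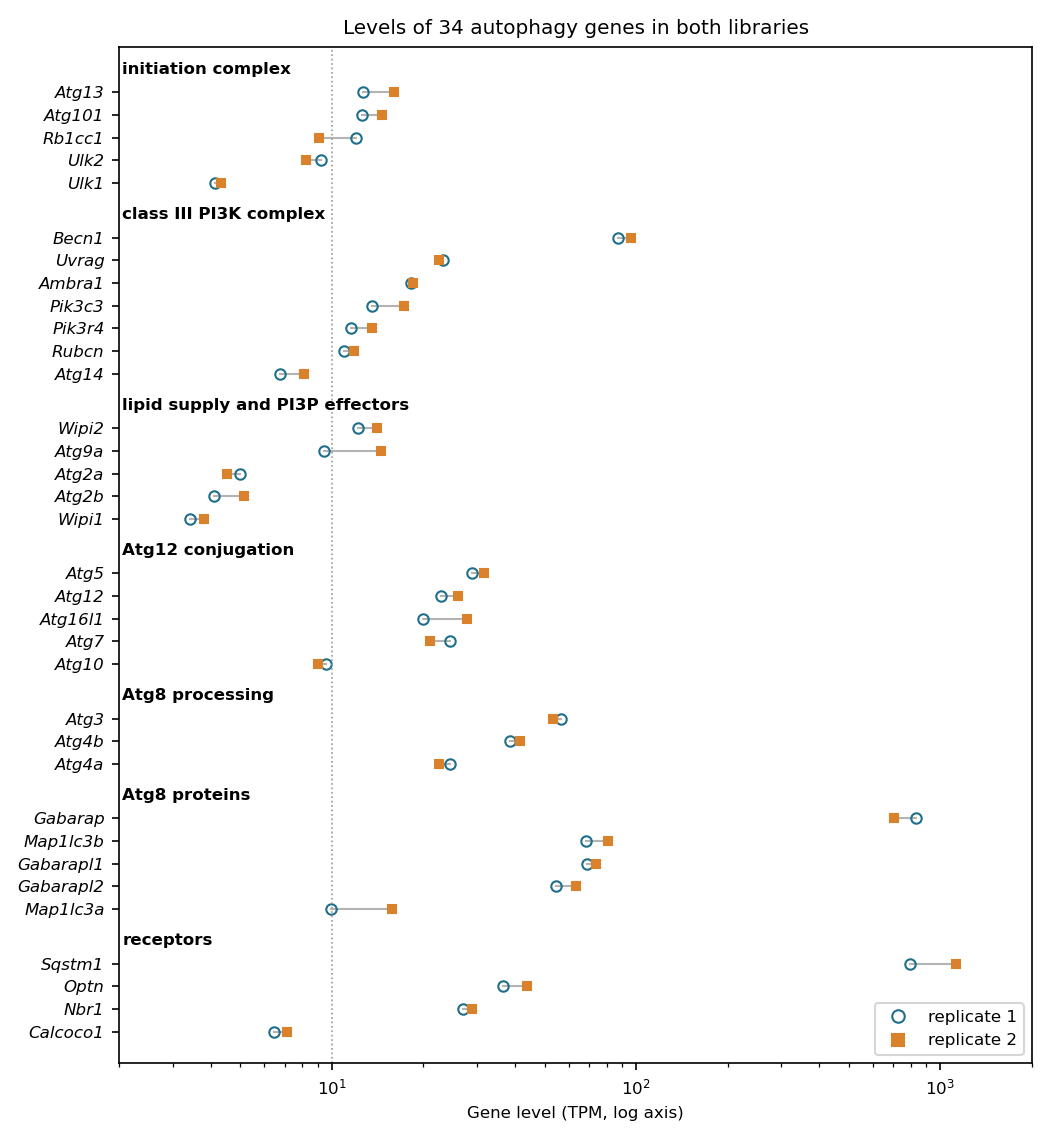
Gene levels in TPM on a log axis, with 1 row per gene grouped by role, open circles for replicate 1 and filled squares for replicate 2. The dotted line marks 10 TPM. Sqstm1 and Gabarap lay between 702.80 and 1124.04 TPM, while no other member exceeded 96.05 TPM.

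The Atg8 proteins are the ubiquitin-like tags of the autophagosome membrane, and Gabarap was the prevailing family member in these macrophages. Close to the end of their coding sequences lies the codon that the pathway acts on, the glycine exposed by Atg4 proteases and then joined to a membrane lipid, so the last codons of the main coding transcript of each gene are shown with that glycine codon in capitals (mm10, coding strand, stop codon included).
Map1lc3a: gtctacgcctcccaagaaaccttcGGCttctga
Map1lc3b: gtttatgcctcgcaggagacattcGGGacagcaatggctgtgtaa
Gabarap: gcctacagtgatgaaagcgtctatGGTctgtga
Gabarapl1: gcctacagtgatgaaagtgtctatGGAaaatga
Gabarapl2: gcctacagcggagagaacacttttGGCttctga

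The glycine codon was followed by 5 further codons in Map1lc3b and by 1 in each of the other genes. By position these ends lie at chr2:155277605-155277637 for Map1lc3a, chr8:121596726-121596770 for Map1lc3b, chr11:69994492-69994524 for Gabarap, chr6:129541135-129541167 for Gabarapl1 and chr8:111952373-111952405 for Gabarapl2, all on the plus strand. Over the aligned coding sequences, 74.7% of positions were identical between Map1lc3a and Map1lc3b and 74.6% between Gabarap and Gabarapl1. Identity between the LC3 genes and the Gabarap genes was 50.5% to 54.9%.

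Gabarap, which has been placed in the later steps of autophagosome formation and closure, had 833.09 TPM in replicate 1, against 702.80 TPM in replicate 2. That put it at rank 152 and 192 among all genes. Map1lc3b, the LC3 protein most used as a marker of autophagosomes, stood at 68.51 and 80.92 TPM in replicates 1 and 2. Gabarapl1 was at 69.10 and 73.70 TPM and Gabarapl2, also known from traffic through the Golgi, at 54.60 and 63.59 TPM. Map1lc3a was the lowest of the family, with 9.93 TPM in the first replicate and 15.71 TPM in the second. On the log2 (TPM + 1) scale Gabarap exceeded Gabarapl1 by 3.40 ± 0.24 and Gabarapl2 by 3.68 ± 0.33, and Map1lc3b exceeded Map1lc3a by 2.48 ± 0.27 (SD, n = 2 libraries). Map1lc3b against Gabarap gave -3.34 ± 0.34, with Map1lc3b lower in both libraries.

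The receptors bind ubiquitin or other marks on cargo and the Atg8 proteins on the membrane. All 4 had a log2 ratio of replicate 2 over replicate 1 above 0, as had 6277 of the 12543 genes tested, and the counting interval of Calcoco1 included 0. Sqstm1, the p62 receptor that also gathers ubiquitinated proteins into condensates (chr11:50199366-50210827, minus strand), had 796.14 TPM in replicate 1 and 1124.04 TPM in replicate 2. It ranked 161 and 114 among all genes. Optn, which binds ubiquitinated bacteria and mitochondria, had 36.60 and 43.70 TPM, and Nbr1, a receptor related to p62 in its ubiquitin-binding architecture, had 27.06 and 28.83 TPM. Calcoco1, a receptor for endoplasmic reticulum and Golgi, was lowest at 6.45 and 7.10 TPM. Set against Nbr1 within each library, Sqstm1 was 5.03 ± 0.29 higher, Optn 0.50 ± 0.11 higher and Calcoco1 different by -1.90 ± 0.02 on the log2 (TPM + 1) scale (SD, n = 2 libraries). Receptor medians were 31.8 and 36.3 TPM in replicates 1 and 2.

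Apart from the genes that extend the membrane, with a median of 4.76 TPM over gene means, the initiation complex was the lowest group, at 10.5 TPM. Its kinases Ulk1 and Ulk2 had 4.12 and 4.32 TPM, and 9.22 and 8.25 TPM, in replicates 1 and 2, so the ranges of the paralogs did not overlap and Ulk1 against Ulk2 gave -0.90 ± 0.14 on the log2 (TPM + 1) scale. Rb1cc1, the FIP200 scaffold of the complex, had 11.97 TPM in replicate 1 and 9.06 TPM in replicate 2. Atg13, the regulatory subunit that ties the kinase to FIP200, had 12.67 and 16.00 TPM, and Atg101, its HORMA-domain partner, had 12.58 and 14.62 TPM. Those partners lay within 0.07 ± 0.08 of each other on the same scale, inside the spread.

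In the class III phosphatidylinositol 3-kinase complex, Becn1 stood apart from its partners by gene total. Becn1, the Beclin 1 scaffold (chr11:101285952-101302286, minus strand), had 87.12 and 96.05 TPM in replicates 1 and 2. Pik3c3, the catalytic Vps34 subunit, had 13.54 and 17.21 TPM, and Pik3r4, its Vps15 regulatory subunit, had 11.57 and 13.58 TPM. Becn1 exceeded Pik3c3 by 2.51 ± 0.13 on the log2 (TPM + 1) scale by gene total. As estimated in the first quantification, protein-coding transcripts held 11.60 and 14.81 TPM for Becn1 and 13.54 and 17.2 TPM for Pik3c3. That estimate rests on how reads were divided between transcripts of Becn1, described below, so where the gap lies was not settled. The subunits that define alternative complexes differed as well. Uvrag, of the endosomal complex, had 23.18 and 22.52 TPM, while Atg14, of the autophagy-initiating complex, had 6.73 and 8.10 TPM, and Atg14 against Uvrag gave -1.51 ± 0.19. These too are gene totals, and the second quantification placed 62.2% and 64.1% of Uvrag's TPM outside protein-coding transcripts. Rubcn, the Rubicon protein that restrains the complex in canonical autophagy and is needed for LC3-associated phagocytosis, had 10.96 and 11.85 TPM. Ambra1, a Beclin 1 partner and cofactor of ubiquitin ligases, had 18.18 and 18.41 TPM, with the smallest coefficient of variation of TPM of any member, 0.889%. By counts some members were closer between libraries, such as Uvrag at a log2 ratio of 0.01, against -0.05 for Ambra1.

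Among the genes that extend the membrane, Atg9a, a lipid scramblase carried on seed vesicles, had 9.39 TPM in replicate 1 and 14.48 TPM in replicate 2. The lipid transfer proteins Atg2a and Atg2b had 4.99 and 4.52 TPM, and 4.10 and 5.13 TPM. This was the 1 pair of 21 in which the higher gene differed between libraries, with Atg2a over Atg2b at 0.23 in replicate 1 and -0.15 in replicate 2. Wipi2, which binds phosphatidylinositol 3-phosphate and recruits Atg16l1, had 12.20 and 14.06 TPM, and its paralog Wipi1 had 3.43 and 3.81 TPM, the lowest of the 34 genes. Wipi1 against Wipi2 gave -1.61 ± 0.05.

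The conjugation enzymes were mostly between the initiation genes and the Atg8 genes. Atg5, the acceptor of Atg12, had 28.90 and 31.58 TPM in replicates 1 and 2, Atg12, the ubiquitin-like modifier, had 22.91 and 26.04 TPM, and Atg16l1, which places the conjugate on the membrane, had 19.97 and 27.80 TPM. Atg7, the E1 enzyme shared by both conjugation systems, had 24.42 and 20.94 TPM. The E2 enzymes differed, with Atg10, which acts on Atg12, at 9.53 and 9.02 TPM and Atg3, which acts on the Atg8 proteins, at 56.70 and 53.20 TPM, so that Atg10 against Atg3 gave -2.44 ± 0.01 on the log2 (TPM + 1) scale. Atg7 against Atg3 gave -1.24 ± 0.09. The proteases that prime and recycle the Atg8 proteins were Atg4b, at 38.54 and 41.65 TPM, and Atg4a, at 24.42 and 22.41 TPM. Counts of Atg4a were fractional, and the gene named Atg4a-ps drew 15.34 and 14.96 counts, so a small part of the reads may have been divided between them.

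**Figure D2:**
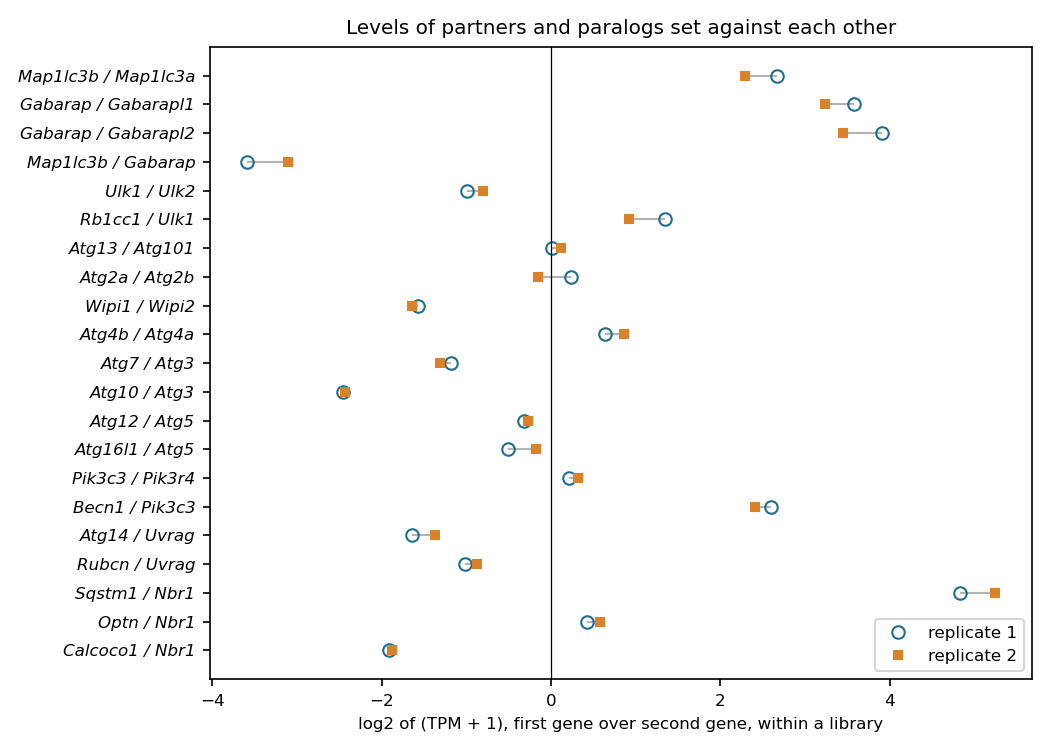
Log2 of (TPM + 1) of the first gene over the second gene within a library, with 1 row per pair, open circles for replicate 1 and filled squares for replicate 2. In 10 of 21 pairs both libraries had the first gene higher, in 10 the second, and Atg2a / Atg2b was split.

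The libraries differed little for these genes. On TMM-scaled counts, log2 ratios of replicate 2 over replicate 1 had a median of 0.13, against 0.00 over the 12543 genes that passed the filter, and 25 of 34 members were higher in replicate 2, against 6277 of the 12543 genes. In all, 1 member, or 2.94%, lay 1.5-fold or more apart, against 13.2% of all genes tested. It was higher in replicate 2, against 6.23% of genes, and 0 members were that much higher in replicate 1, against 6.94%. Further, 0 lay 2-fold apart, against 4.21%. With 1 group no test was made and there is no p-value for any of these ratios. The interval of counting error excluded 0 for 24 members, or 70.6%, against 57.8% of genes. Of all 34 members, 18 had such an interval and were higher in replicate 2, against 28.4% of all genes tested. Another 6 of the 34 had such an interval and were higher in replicate 1, against 29.5%. The typical size of a ratio regardless of sign was 0.15 for the members and 0.21 for all genes tested. The lowest count of any member was 261, whereas the genes tested included some with far fewer, such as Zbtb46 with 20 and 16. These comparisons with all genes tested were therefore not matched for depth.

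Atg9a had the largest ratio, 0.60 (exact 95% counting interval 0.50 to 0.71), from 1227.84 and 1722.00 counts in replicates 1 and 2. Map1lc3a followed at 0.52 (0.28 to 0.76), from 261 and 345 counts. Sqstm1 had 0.49 (0.47 to 0.51), from 51460.9 and 66674.7 counts, and Atg16l1 had 0.45 (0.37 to 0.54). At the other end lay Atg7 at -0.26 (-0.34 to -0.17), Gabarap at -0.16 (-0.19 to -0.14) and Ulk2 at -0.15 (-0.25 to -0.05). Thus the most abundant receptor was higher in replicate 2 and the most abundant Atg8 gene was higher in replicate 1. These intervals cover counting error only and not the variation between cultures.

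For several genes the ratio of deposited TPM differed from the ratio of counts. Gene TPM also depends on the lengths of the transcripts to which reads were assigned. Rb1cc1 had a log2 TPM ratio of -0.40 and a count ratio of -0.14. Becn1 had 0.14 by TPM and -0.01 by counts, and Gabarapl2 had 0.22 and 0.02. The sign differed for 4 members, Atg10, Uvrag, Becn1 and Ambra1, each of which had a counting interval that included 0. By TPM, 2 members were 1.5-fold or more apart, Atg9a at 0.62 and Map1lc3a at 0.66.

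**Figure D3:**
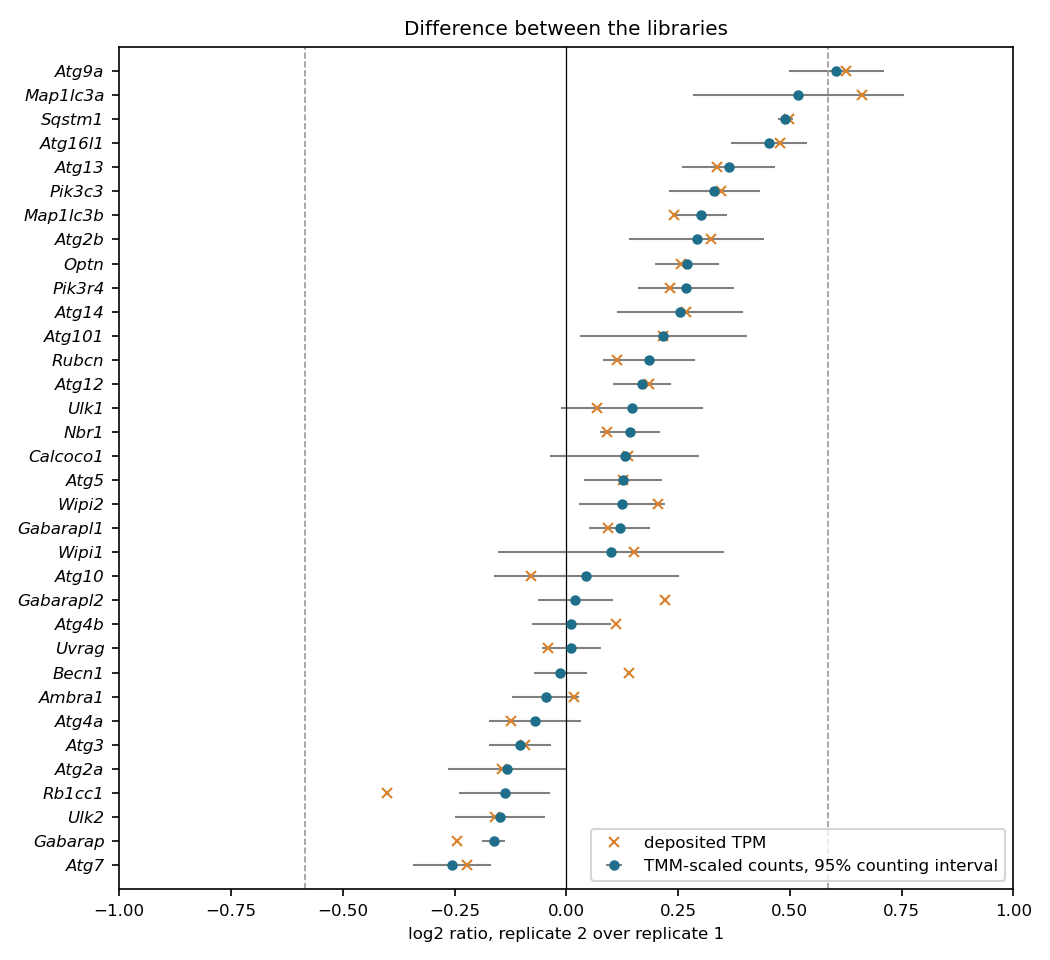
Log2 ratio of replicate 2 over replicate 1 for each member, as filled circles from TMM-scaled counts with exact 95% counting intervals and as crosses from deposited TPM. Dashed lines mark 1.5-fold. Atg9a alone passed the upper line by counts, at 0.60, and no member passed the lower one.

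The 34 genes have 243 annotated transcripts, with 2 to 21 per gene, and a transcript share is the percent of its gene's TPM that a transcript holds. The leading transcript held 60% or more in both libraries in 22 members, or 64.7%, against 63.2% of protein-coding genes with several transcripts and a mean of 1 TPM or more, so the members were near that background. The gene was carried almost wholly by 1 transcript in Atg14, where Atg14-201 held 100% in both libraries, in Atg3, with Atg3-201 at 99.5% and 99.8%, and in Atg12, with Atg12-201 at 99.2% in both. Sqstm1-202 held 93.6% and 91.6% of Sqstm1. The most divided genes were Atg4b, whose leading Atg4b-201 held 31.6% and 29.6%, Rb1cc1, whose leading Rb1cc1-201 held 26.3% and 36.1%, and Nbr1, whose leading Nbr1-206 held 33.7% and 36.8%. Atg9a was divided between Atg9a-205, with 6.10 and 7.28 TPM in replicates 1 and 2, and Atg9a-201, at 2.50 and 5.74 TPM, both labelled protein-coding.

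Becn1 was the member with the smallest share of protein-coding transcripts. Transcripts not labelled protein-coding held 86.7% and 84.6% of its TPM in replicates 1 and 2, and those labelled protein-coding summed to 11.60 and 14.81 TPM. By protein-coding transcripts alone, in the first quantification, Becn1 was in place 20 of the 34 genes, against place 3 by gene total. There it lay among Pik3c3, Atg13 and Atg101. Its leading transcript, Becn1-201, is annotated as a target of nonsense-mediated decay, a pathway that degrades mRNAs with premature stop codons, and held 40.5% and 38.7%. Becn1-211, a retained-intron transcript, held 20.5% and 20.1%. In estimated counts rather than TPM, transcripts not labelled protein-coding held 72.5% and 77.3% of the gene. The second quantification, which assigns reads to transcripts by another method, gave 94.7% and 95.7% by TPM, and it also had Becn1-201 in the lead, at 39.0% and 38.9%. The gene total there was 80.6 and 82.9 TPM, so less was left for protein-coding transcripts than in the first quantification. The place of Becn1 by protein-coding transcripts was not computed there.

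The sequence that sets Becn1-201, at 35.24 and 37.18 TPM in replicates 1 and 2, apart from Becn1-205, the protein-coding transcript with the highest mean at 7.84 and 6.28 TPM, is shown because the shares rest on telling them apart. Relative to Becn1-205, Becn1-201 contains a further 64 bases at chr11:101296194-101296257 on the minus strand (mm10), a length that leaves a remainder of 1 when divided by 3, and a further 4 bases at a later exon end. The extension is in capitals, with the flanking exon bases in lower case.
Becn1-201: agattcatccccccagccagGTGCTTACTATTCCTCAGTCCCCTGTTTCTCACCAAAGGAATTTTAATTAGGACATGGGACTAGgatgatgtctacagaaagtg
Becn1-205: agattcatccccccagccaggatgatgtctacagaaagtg

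The annotated ends of these transcripts also differ. The last exon is 720 bases long in Becn1-201 and 3030 bases in Becn1-205, so reads over the shared coding exons and the shorter end match both. Reads over single junctions were not analysed here, and the part of this length difference in the shares was not tested.

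Becn1 was 1 of 8 members, or 23.5%, with 20% or more of their TPM outside protein-coding transcripts in both libraries, against 19.2% of protein-coding genes with several transcripts and a mean of 1 TPM or more, and 6 of the 8 also met the limit in both libraries of the second quantification. Map1lc3a was led by a processed transcript, Map1lc3a-203, with 4.24 and 10.38 TPM in replicates 1 and 2, while its protein-coding Map1lc3a-201 had 5.69 and 5.33 TPM. In this estimate, from 261 and 345 counts of the gene, the TPM difference between libraries lay in the transcript with no annotated reading frame. Gabarapl2 was alike by TPM, in that its retained-intron transcript Gabarapl2-203 had 11.25 and 23.50 TPM and its protein-coding Gabarapl2-201 had 43.35 and 40.09 TPM. By counts, however, the gene Gabarapl2 did not differ beyond counting error, at a log2 ratio of 0.02 (-0.06 to 0.10). The shares outside protein-coding transcripts in replicates 1 and 2 were 35.1% and 30.1% for Atg4b, 48.4% and 29.7% for Rb1cc1, and 21.5% and 30.2% for Nbr1. For Pik3r4 the second quantification gave 24.0% and 12.9% and the first gave 48.7% and 39.4%. For Rubcn the second gave 19.5% and 12.8% and the first gave 43.4% and 37.8%. Uvrag went the other way, at 62.2% and 64.1% in the second quantification and 7.64% and 3.11% in the first. Ulk2 did so too, at 24.9% and 24.7% in the second and 3.80% and 0.0% in the first. The transcript make-up of these genes was not settled by these files.

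**Figure D4:**
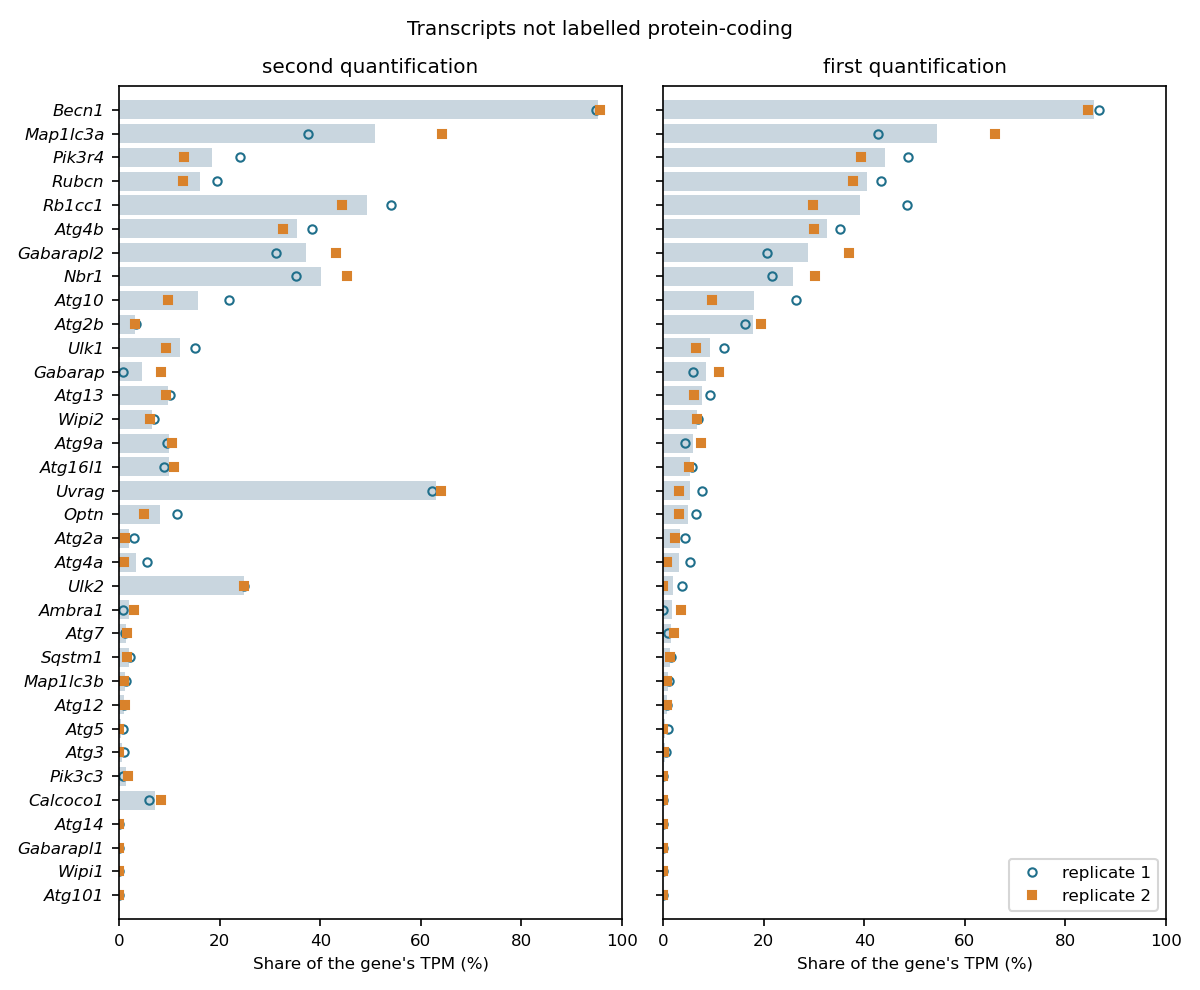
Share of each gene's TPM in transcripts not labelled protein-coding, in percent, for the second quantification in the left panel and the first in the right panel. Bars are means of both libraries, open circles replicate 1 and filled squares replicate 2. Becn1 had the largest share in both panels, while Uvrag and Ulk2 had larger shares in the left panel and Pik3r4 and Rubcn in the right.

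Gabarap was divided between transcripts that are both labelled protein-coding. Gabarap-202 lacks 94 bases present in Gabarap-201 at chr11:69992582-69992675 on the plus strand (mm10), a length that leaves a remainder of 1 when divided by 3. The bases that Gabarap-202 lacks are in capitals.
Gabarap-201: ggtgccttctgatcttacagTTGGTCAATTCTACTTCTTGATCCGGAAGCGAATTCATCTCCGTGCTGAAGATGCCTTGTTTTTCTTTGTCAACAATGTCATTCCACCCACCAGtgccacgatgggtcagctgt
Gabarap-202: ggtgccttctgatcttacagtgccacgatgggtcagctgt

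Gabarap-201 held 476.12 TPM in replicate 1 and 451.76 TPM in replicate 2, and Gabarap-202 held 307.35 and 173.67 TPM. As shares of the gene, Gabarap-202 took 11.6% and 0.0% in the second quantification and 36.9% and 24.7% in the first. The level of Gabarap-201 was thus nearer between libraries than the gene total, and how much of Gabarap-202 was present depended on the quantification.

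By gene total the quantifications were close. The second over the first gave log2 (TPM + 1) differences from -0.37 for Gabarap to 0.50 for Uvrag, and 0 members were 1.5-fold or more apart, against 2.80% of protein-coding genes at 1 TPM or more. Uvrag had a mean of 32.6 TPM in the second quantification and 22.9 TPM in the first. Rb1cc1 differed by 0.47 and Pik3r4 by -0.36. The leading transcript was the same in both quantifications for 32 of 34 members, with Atg2b and Rb1cc1 as the exceptions. The same share over all genes was not computed, so this count has no background to be set against.

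Exons of 11 members overlap an exon of another gene, and reads there may have been shared because no source used here gives the strand setting. Most of these neighbours were near 0. Those with more signal were Fyttd1, at 14.8 and 16.4 TPM beside Rubcn over 171 bases, Gskip, at 14.6 and 13.9 TPM beside Atg2b over 383 bases, and Ankzf1, at 5.19 and 6.44 TPM beside Atg9a over 46 bases. Atg9a also overlaps Gm29253 on the same strand over 1832 bases, where reads may be shared whatever the strand setting. Gm29253 had 0.09 and 0.0 TPM in replicates 1 and 2.

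Promoter sequence was compared as a feature that the choice of genes did not use. RefSeq promoters of 300 bases (GRCm38.p6, 250 before to 50 after the start) matched 28 members, and their median GC content was 59.3%, against 52.7% over 32851 promoters. The GC box GGGCGG was found in 20 of the 28 genes, or 71.4%, against 38.2% of all genes. The E-box CACGTG, which reads the same on both strands and is bound by TFEB and related factors among others, was found in 5 of 28, or 17.9%, against 8.09% of all genes. The AP-1 letters TGACTCA were found in 0, against 5.95%. TGACNNNGC, the core of the antioxidant response element, was in 3 promoters, of Atg13, Map1lc3b and Ulk2, or 10.7% against 14.0%. All were searched on both strands. The backgrounds were all genes or promoters of the promoter set, expressed here or not, and were matched neither for level nor for GC content. Whether these shares differ from those of expressed genes of like GC content was not tested. Matches of letters are a description only and no binding was measured.

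The E-box windows are shown with the motif in capitals, each on the strand of its gene. Atg3 holds a pair of E-boxes, the second of which begins 71 bases before the start. For Atg3, Atg7, Atg14 and Rubcn the RefSeq start next to the E-box lies inside the GENCODE gene. The E-boxes of Atg3 still lie before the GENCODE gene, whereas those of Atg7, Atg14 and Rubcn lie inside it. Use of these inner starts was not tested.
Atg3: ctccttttgtCACGTGtcctgggaga
Atg3: agagtcgagtCACGTGaggccttagg
Atg5: gagcgcttgcCACGTGgtcttggtga
Atg7: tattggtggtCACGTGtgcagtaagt
Atg14: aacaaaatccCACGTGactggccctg
Rubcn: cctagcacatCACGTGtacccaggtt

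The windows lie at chr16:45158725-45158750 and chr16:45158748-45158773 for Atg3, chr10:44268315-44268340 for Atg5 and chr6:114670954-114670979 for Atg7, on the plus strand, and at chr14:47568420-47568445 for Atg14 and chr16:32868439-32868464 for Rubcn, on the minus strand (GRCm38.p6). The 5 genes with an E-box ranged from 6.73 TPM for Atg14 to 56.70 TPM for Atg3, so they included high and low members.

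Other genes of the pathway give the setting of these levels. For comparison, 9781 of 22028 protein-coding genes reached 1 TPM in both libraries, and 6015, or 27.3% of the 22028, reached 10 TPM. Of 12 further receptors, 12 reached 10 TPM in both libraries, and the list median was 41.7 TPM. The highest were Ncoa4, the ferritin receptor, at 137.48 and 155.56 TPM in replicates 1 and 2, Tax1bp1, a receptor for ubiquitinated cargo, at 136.97 and 143.93 TPM, and Fkbp8, a mitochondrial receptor, at 128.27 and 101.28 TPM. The lowest were Ccpg1, a receptor for endoplasmic reticulum, at 11.59 and 12.49 TPM and Bnip3, a mitochondrial receptor, at 11.65 and 11.80 TPM. Sqstm1 therefore exceeded each of the 12 in both libraries.

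Of 10 further core genes, 5 reached 10 TPM in both libraries, against 27.3% of protein-coding genes, and the list median was 10.2 TPM. The highest was Vmp1, a scramblase of the endoplasmic reticulum, at 274.74 and 222.17 TPM, followed by Tmem41b, another such scramblase, at 38.54 and 40.30 TPM and Wdr45b, a Wipi family protein, at 33.18 and 37.24 TPM. Vmp1 was thus above every one of the 34 members other than Sqstm1 and Gabarap. Atg16l2 and Atg9b, the paralogs of Atg16l1 and Atg9a, were the lowest, at 1.91 and 2.06 TPM and at 0.37 and 0.21 TPM.

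Fusion with the lysosome was represented by 16 genes, with a list median of 40.5 TPM. Of these, 14 reached 10 TPM in both libraries, against 27.3% of protein-coding genes. The lysosomal membrane protein Lamp1 had 1812.83 and 2257.92 TPM, the SNARE Vamp8 531.95 and 563.22 TPM, and Lamp2 482.62 and 547.67 TPM. Stx17, the SNARE of the closed autophagosome, was low at 6.81 and 9.44 TPM, as was the tether Epg5 at 3.36 and 3.93 TPM. Among 35 upstream regulators and transcription factors, 22 reached 10 TPM in both, against 27.3% of protein-coding genes, with a median of 25.3 TPM. Irgm1, an immunity-related GTPase, had 641.91 and 767.57 TPM, and the Ragulator subunits Lamtor1 and Lamtor5 had 232.01 and 202.38 TPM, and 213.93 and 183.14 TPM. Deptor, an inhibitor of mTOR, had 0.46 and 0.40 TPM and Prkaa2, an AMPK catalytic subunit, had 0.10 and 0.15 TPM. Prkab2, an AMPK beta subunit, was the 1 gene of the 4 lists more than 2-fold apart by counts, at -1.16 (-1.57 to -0.78) from 190 and 78 counts, although its TPM was 1.14 and 1.11.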

How the data were processed

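Both libraries come with gene and transcript tables of expected counts and TPM (the first quantification), per the file headers, and with a transcript table of estimated counts and TPM made from the reads (the second quantification), per the README deposited with each sample. That README gives mm10 and GENCODE release M21. The sources used here name neither the authors' tools nor their strand setting. The effective length and posterior SD columns were deposited by the authors too. Symbols were taken from the transcript names of the second quantification and joined to the gene tables on gene identifier. Members and lists were chosen with earlier results of these data known.

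Expected counts were rounded and scaled with TMM factors in edgeR 4.0.16 (R 4.3.3) after filterByExpr, with a prior count of 0.5. Exact Clopper-Pearson 95% intervals of the ratio cover counting error only. The ratio step was tested on simulated counts that held counting error only, so that test does not cover variation between cultures. Pair ratios used log2 of TPM plus 1. The authors' counts of 23 members were whole in both libraries within 0.005. The largest deposited posterior SD of a member's count was 0.627% of it. Alternatives used DESeq2 1.42.0 size factors. Other steps used pandas 2.3.3, SciPy 1.17.1, NumPy 2.4.6 and matplotlib 3.10.9 under Python 3.11.15. All 34 members are named. Of each other list, the 3 highest, the 2 lowest and any gene 2-fold apart with a mean count of 100 or more are named. Of transcripts, the leading ones and others with 20% or more in both libraries were eligible to be named, and Becn1-205 is named outside that rule, chosen as the protein-coding Becn1 transcript with the highest mean after its values were seen.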

Additional observations from a re-analysis of the deposited data

How the results depend on the processing

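Most of the summaries stayed near their values under the alternatives run. With 20 TPM as the level, 15 members passed in both libraries, against 23 at 10 TPM. At a 2-fold limit 0 members were apart between libraries, and by the ratio of TPM, an alternative chosen after seeing the data, 2 were, against 1 as reported. Between quantifications 1 member, Rb1cc1, was 1.5-fold apart without replicate 1, against 0 with both. The cause was not tested. Leaving out each replicate gave medians of 15.9 to 17.8 TPM, 24 to 25 members at 10 TPM, 10 to 11 pairs with the first gene higher, 23 to 24 members with a leading transcript of 60%, and 0 to 1 members apart between quantifications. The median log2 ratio was 0.13 to 0.18 over the scalings, filters, prior counts, quantifications and TPM ratio run. For single members, 28 of the 34 ratios by TPM stayed inside the counting interval of the ratio by counts and 6 did not, and under the second quantification Sqstm1, at 0.52, did not. No paired analysis was possible because there is 1 group. With 2 libraries the spread rests on 1 difference per gene. Counting error limits the members with few reads, such as Wipi1, with 264 and 261 counts and an interval of -0.15 to 0.35 around a ratio of 0.10.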
